A study of Mus musculus with 3 samples.

Results

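The genes described here are 32 mouse genes of sterol and fatty acid synthesis and of their control by the SREBP transcription factors, taken as a list of gene symbols. A probe set, the group of short probes that reports 1 transcript, was used where its annotation gave exactly 1 symbol. By that rule 31 of the 32 genes had a probe set, and Acat2, an acetyl-CoA acetyltransferase at the start of the pathway, had none. The 31 genes were covered by 73 probe sets, 64 of which reached the median level of the array. All 31 had at least 1 such probe set and were tested, out of 10843 genes tested and 18193 genes named on the array.

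The cells were NIH3T3, a line of immortal fibroblasts from mouse embryos, and the series, part of a screen for resistance to oxidative stress, set cells that carried an shRNA against cells that carried the empty vector. The tested array held cells with an shRNA against retinol saturase (Retsat), which are labelled highly resistant to t-BHP, an organic peroxide. It was set against 2 empty-vector arrays, called empty vector 1 and empty vector 2 here, whose cells are labelled untreated and were grown in calf serum. The labels do not give growth or treatment of the RetSat shRNA cells, nor whether either kind of cell was a clone or a pool. The values are probe set signals on a linear scale, and the comparison asks which of the lipid genes differed in the resistant cells.

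Cells make cholesterol from acetyl-CoA by way of mevalonate, farnesyl diphosphate and squalene, and make fatty acids from the same precursor by way of malonyl-CoA. The genes of both routes are controlled by SREBP proteins, which are held in the endoplasmic reticulum with their escort SCAP while sterols are plentiful and retained there by the INSIG proteins. When sterols fall, SCAP carries SREBP to the Golgi, where proteases release the active factor, which then binds promoters together with partners such as NF-Y and Sp1. Fibroblasts rely on this feedback to keep membrane cholesterol steady.

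Promoter sequences show what the listed genes share beyond their pathway. Promoter windows at RefSeq start sites in the GRCm38.p6 build were available for 24 of the 32 genes. In these, the 250 bases before the most upstream start were searched on both strands. Npc1, Fdps, Scd1, Fads1, Sqle, Scd2, Stard4 and Fdft1 were not analysed here for promoter letters. The letters CCAAT, the box bound by NF-Y, were present before 16 of the 24 genes (66.7%), against 37.1% of 8854 tested genes with a window and 34.5% of 27025 genes in all. The Sp1 box GGGCGG was present before 17 genes (70.8%), against 61.1% of tested genes. The E-box CACGTG was present before 4 genes (16.7%: Abca1, Hsd17b7, Insig1 and Sc5d), against 8.67% of tested genes. The sterol regulatory element in its strict form was found before none of the 24 and before 0.0226% of tested genes. A looser form, TCACNCCAC, which lies within the strict one, was found before Hmgcs1 alone (4.17%), against 0.904% of tested genes. A match describes these letters in this window and is not evidence of binding. The windows printed here are those of Pmvk, Mvd and Ebp, which lay farthest above both empty-vector arrays, of Insig1 and Srebf2 from the control system, and of Hmgcs1 for its sterol element. They were chosen with the array values known. Capitals mark the NF-Y box, the E-box and the looser sterol element on either strand, so that an NF-Y box on the other strand reads ATTGG. The windows lie at chr3:89454291-89454540, plus strand, for Pmvk, chr8:122443423-122443672, minus strand, for Mvd, chrX:8193513-8193762, minus strand, for Ebp, chr5:28071162-28071411, plus strand, for Insig1, chr15:82147019-82147268, plus strand, for Srebf2, and chr13:119690101-119690350, plus strand, for Hmgcs1.
Pmvk: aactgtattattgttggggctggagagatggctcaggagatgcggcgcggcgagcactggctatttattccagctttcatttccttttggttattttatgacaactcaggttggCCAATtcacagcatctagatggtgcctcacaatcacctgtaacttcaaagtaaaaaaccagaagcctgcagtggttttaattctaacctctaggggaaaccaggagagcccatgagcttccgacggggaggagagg
Mvd: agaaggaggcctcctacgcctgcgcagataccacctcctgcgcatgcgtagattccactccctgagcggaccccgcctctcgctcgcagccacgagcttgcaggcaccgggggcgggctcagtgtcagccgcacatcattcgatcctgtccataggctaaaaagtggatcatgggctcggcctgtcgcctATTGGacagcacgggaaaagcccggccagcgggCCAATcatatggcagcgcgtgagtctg
Ebp: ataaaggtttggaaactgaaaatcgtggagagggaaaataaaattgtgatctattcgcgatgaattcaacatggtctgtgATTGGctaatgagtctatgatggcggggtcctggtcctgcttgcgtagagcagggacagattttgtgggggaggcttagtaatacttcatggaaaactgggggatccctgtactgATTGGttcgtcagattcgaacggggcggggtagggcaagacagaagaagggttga
Insig1: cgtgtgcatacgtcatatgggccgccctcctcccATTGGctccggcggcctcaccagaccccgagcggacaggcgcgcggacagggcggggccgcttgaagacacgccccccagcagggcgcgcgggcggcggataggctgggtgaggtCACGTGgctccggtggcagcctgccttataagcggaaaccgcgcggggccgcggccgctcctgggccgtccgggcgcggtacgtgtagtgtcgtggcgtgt
Srebf2: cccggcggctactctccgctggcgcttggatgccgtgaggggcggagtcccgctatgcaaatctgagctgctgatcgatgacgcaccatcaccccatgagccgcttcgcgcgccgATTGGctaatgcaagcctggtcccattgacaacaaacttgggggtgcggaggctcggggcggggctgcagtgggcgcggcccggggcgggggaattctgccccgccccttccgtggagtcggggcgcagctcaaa
Hmgcs1: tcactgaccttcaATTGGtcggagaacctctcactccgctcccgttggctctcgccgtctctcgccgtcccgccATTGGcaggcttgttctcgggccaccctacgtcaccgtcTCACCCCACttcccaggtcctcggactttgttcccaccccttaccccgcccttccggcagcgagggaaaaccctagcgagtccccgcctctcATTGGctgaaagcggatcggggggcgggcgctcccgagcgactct

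**Figure D1:**
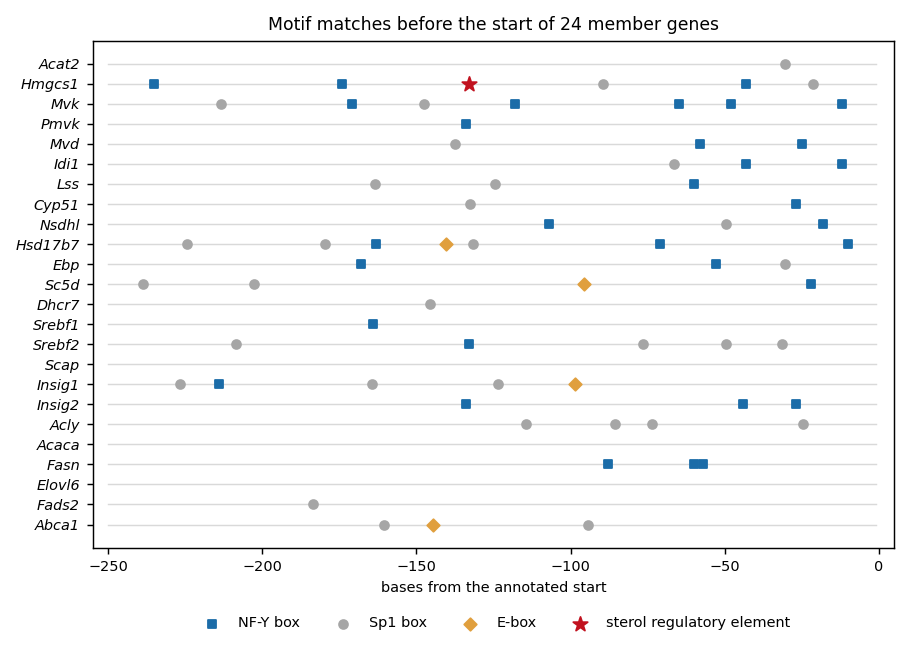
Motif matches in the 250 bases before the most upstream annotated start of 24 member genes. Rows are genes in pathway order, and the x axis is the distance in bases from the start. Symbols mark NF-Y boxes (CCAAT), Sp1 boxes (GGGCGG), E-boxes (CACGTG) and the looser sterol regulatory element, each as exact letters. Of the 24 rows, 16 carry an NF-Y box and 1, Hmgcs1, an exact match to the looser sterol element.

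In the printed windows Mvd carried CCAAT matches that begin at bases -60 and -27 from the start, and Ebp carried them at -170 and -55. Hmgcs1 carried 3, at -237, -176 and -45, around a sterol element at -137. Every gene of the cholesterol route with a window held an NF-Y box except Acat2 and Dhcr7, as the map of motif positions shows. Of the fatty acid genes with a window (Acly, Acaca, Fasn, Elovl6 and Fads2), Fasn was the 1 with a CCAAT match in these bases.

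Retsat was lower on the array labelled with its shRNA, and the arrays were unequally alike. Retsat read 69.5 on the RetSat shRNA array, against 416 and 496 on empty vectors 1 and 2, and its RetSat shRNA value was 15.2% of the empty-vector mean. Its log2 difference from that mean was -2.54 (SE 0.504) and did not pass limma as reported (adjusted p of 1), while with a robust variance prior it did (limma adjusted p of 0.00717). Over the 10843 tested genes the SD of the log2 difference was 0.336 between RetSat shRNA and empty vector 2, against 0.754 between RetSat shRNA and empty vector 1 and 0.739 between the empty-vector arrays. Empty vector 1 thus stood apart, and the groups and main counts are given against each empty-vector array. The labels give the RetSat shRNA array and empty vector 2 the same number, 2, without saying what it marks, so a shared preparation and other sources of their likeness cannot be told apart. All 10 fibroblast markers on a chosen list were tested, with summed signals of 83075 on RetSat shRNA, against 81252 and 82227 on empty vectors 1 and 2. S100a4, Vim and Col1a2 were the brightest, and the sums hide opposite differences of single markers. Pdgfra and Pdgfrb differed most from empty vector 1. Pdgfra read 1887 with the shRNA, against 4733 and 2172.5 with empty vectors 1 and 2. Pdgfrb read 2455 with the shRNA, against 1287 and 2548 with empty vectors 1 and 2. Of 6 adipocyte markers 2 (Plin1 and Cfd) had no probe set, 3 lay below the filter and 1, Fabp4, reached it. Summed adipocyte signals were 472 on RetSat shRNA, against 498 and 343 on empty vectors 1 and 2. Fabp4 alone read 440 on RetSat shRNA, against 487 and 334 on empty vectors 1 and 2. The hepatocyte markers (0 of 3 at the filter), epithelial markers (2 of 4) and macrophage markers (2 of 4) summed to at most 280.5 on an array. The part of other cell types in the results was not tested. In cultures of bulk cells, fewer cells of a type and less RNA per cell cannot be told apart.

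No member passed the test of RetSat shRNA against empty vector. In limma, with Benjamini-Hochberg adjustment over all tested genes, the adjusted p was 1 for all 31 members, and the lowest unadjusted p was 0.252 (Acaca). Of all tested genes, 0% passed at an adjusted p of 0.05 and 108 (0.996%) had an unadjusted p under 0.05, of which 0 were members. The standard errors of the members' log2 differences ran from 0.50 (Npc1) to 0.59 (Acaca). They are moderated errors, which combine 1 residual degree of freedom between a gene's 2 controls with a prior shared by all genes, and the fit takes the single RetSat shRNA array to be as variable as those. The labels do not say whether the controls were grown separately, so the p-values measure a spread that may be technical.

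Described by position alone, 14 of the 31 members read above both empty-vector arrays on RetSat shRNA (45.2%, against 34.4% of all tested genes), and 6 read below both (19.4%, against 25.4%). The remaining 11 lay between the empty-vector arrays. After each array was centred on its median, the split was 17 above and 3 below (all tested genes 45.4% and 18.3%), and after quantile normalization it was 10 above and 8 below (36.3% and 21.9%). The steps were small. At least 2-fold beyond both controls, 0 members were higher and 0 lower, against 0.0922% and 0.498% of all tested genes. A milder step of 0.32 on the log2 scale, which is 25% higher or 20% lower, was passed relative to both controls by 0 members on the higher side and 0 on the lower, against 5.49% and 6.11% of all tested genes. These shares include dimmer genes, whereas 29 of the 31 members reached the 75th percentile of signal. At that level 1 of 7007 genes was at least 2-fold beyond both controls, and the share at the milder step was not taken. The 0 members are therefore not set against genes of like signal. With the arrays centred on their medians, 3 members (Mvd, Pmvk and Ebp) passed the milder step on the higher side. Ranked by the smaller of a gene's differences from the controls, Pmvk lay farthest above both, at 0.31 on the log2 scale, and Abca1 farthest below both, at -0.23.

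**Figure D2:**
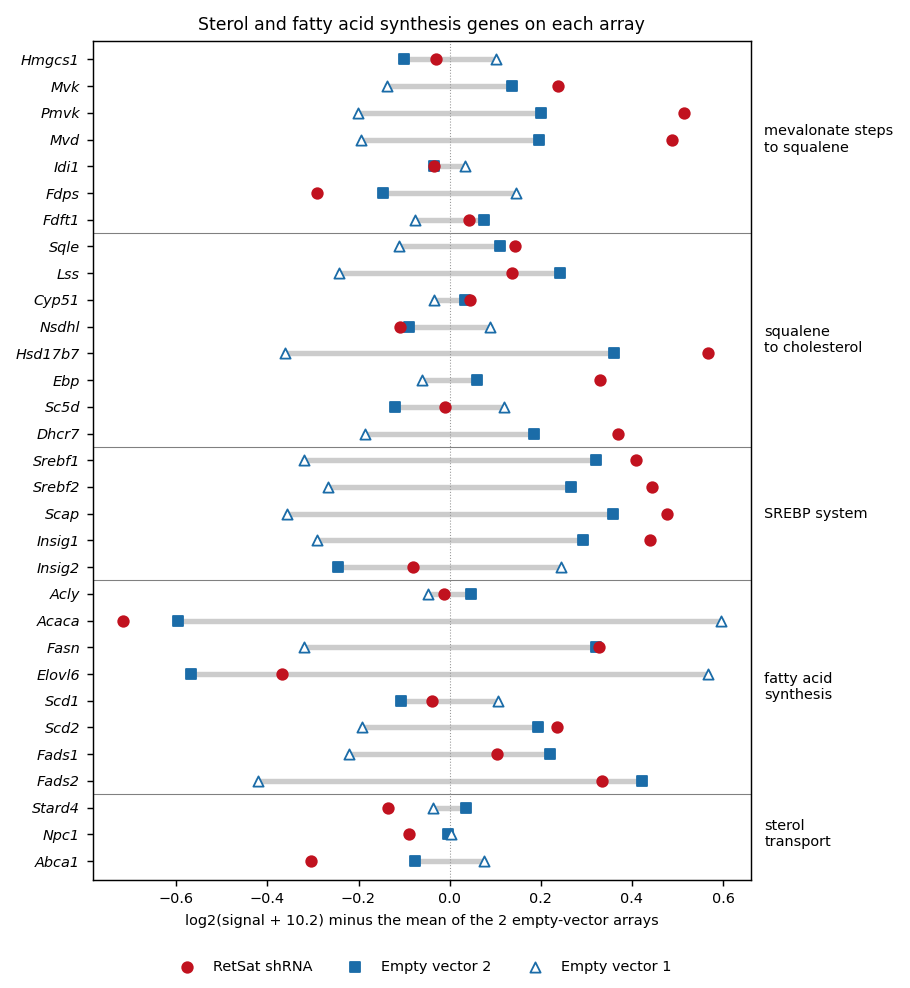
Level of each of the 31 tested members on RetSat shRNA (red circles), empty vector 2 (filled squares) and empty vector 1 (open triangles), as log2(signal + 10.2) minus the mean of the 2 empty-vector arrays, 1 array per symbol. Grey bars span the empty-vector arrays: 14 red circles lie to the right of their bar, 6 to the left and 11 within it.

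RetSat shRNA lay closer to empty vector 2 for most members. Over the 31 members the log2 difference had a median of 0.04 relative to empty vector 2 and of 0.25 relative to empty vector 1, against medians of 0.00 and 0.14 for all tested genes, and 0.15 for the members between empty vector 2 and empty vector 1 (all tested genes 0.14). After quantile normalization the members were not above all tested genes: their medians were 0.0017 relative to empty vector 2 and 0.17 relative to empty vector 1, against 0.0022 and 0.20. For 26 members (83.9%) RetSat shRNA and empty vector 2 were the closest pair of arrays, as they were for 65.9% of all tested genes. For 4 members, Ebp, Stard4, Npc1 and Abca1, the 2 empty-vector arrays were the closest pair (12.9%, against 17.9%), so that RetSat shRNA was the array standing apart. For Stard4 this held on its brightest probe set alone. For Acly the closest pair was RetSat shRNA and empty vector 1. Among the 29 members that reached the 75th percentile of signal, the SD of the log2 difference from empty vector 2 was 0.135, against 0.210 for all 7007 genes at that level. Centring the arrays on their medians moved the median difference from empty vector 1 to 0.25 for all tested genes and 0.37 for the members. Over all tested genes, centred differences from that array are to be read against 0.25, and differences as deposited against 0.14. Among genes reaching the 75th percentile of signal the median as deposited was higher, at 0.19, and it was 0.32 for the 29 members there. Relative to the empty-vector mean the members' median was 0.10, and it was -0.0046 when probe sets with an _s_ or _x_ suffix, whose probes may bind related sequences, were left out.

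The steps from acetyl-CoA to squalene were split. Of the 7 genes tested, 3 (Mvk, Pmvk and Mvd) read above both empty-vector arrays (42.9%, against 34.4% of all tested genes) and 1 (Fdps) below both (14.3%, against 25.4%). With the arrays centred 5 were above and 1 below, and after quantile normalization 3 were above and 3 below. Their median log2 difference was 0.07 relative to empty vector 2 (0.14 centred and 0.02 after quantile normalization), and relative to empty vector 1 it was 0.12 (-0.01 after quantile normalization). Pmvk, the phosphomevalonate kinase, read 639.9 on the RetSat shRNA array, against 386 and 513 on empty vectors 1 and 2. Mvd, the decarboxylase that forms isopentenyl diphosphate, read 1346 with the shRNA, against 834 and 1097 with empty vectors 1 and 2. For both genes RetSat shRNA was highest, empty vector 2 in the middle and empty vector 1 lowest, with log2 differences of 0.31 and 0.29 relative to empty vector 2, and of 0.71 and 0.68 relative to empty vector 1. The step between RetSat shRNA and empty vector 2 was smaller than that between the empty-vector arrays, which was 0.40 for Pmvk and 0.39 for Mvd. Mvk, the mevalonate kinase, read 798 with the shRNA, against 613 and 744 with empty vectors 1 and 2, in the same order.

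Fdps, the synthase of farnesyl diphosphate, read 4358 with the shRNA, against 5904 and 4824 with empty vectors 1 and 2, so that it was lowest with the shRNA, with log2 differences of -0.15 relative to empty vector 2 and -0.44 relative to empty vector 1. Fdft1, the squalene synthase that uses its product, read 2753 with the shRNA, against 2533 and 2817 with empty vectors 1 and 2, between the control arrays. Hmgcs1, which makes the HMG-CoA that enters the mevalonate route, read 6501 with the shRNA, against 7118 and 6188 with empty vectors 1 and 2. The isomerase Idi1 read 2457 with the shRNA, against 2576 and 2456 with empty vectors 1 and 2. Both of these lay between the control arrays, closer to empty vector 2. With the mean of all probe sets Idi1 lay 0.22 above the empty-vector mean, against -0.03 with its brightest probe set.

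Among the enzymes that turn squalene into cholesterol, 5 of 8 (Sqle, Cyp51, Hsd17b7, Ebp and Dhcr7) read above both empty-vector arrays (62.5%, against 34.4% of all tested genes) and 1 (Nsdhl) below both (12.5%, against 25.4%). With the arrays centred 5 were above and 0 below, and after quantile normalization 3 were above (37.5%, against 36.3%) and 1 below. The median difference was 0.07 relative to empty vector 2 and 0.32 relative to empty vector 1. Ebp, the isomerase that shifts the sterol ring double bond, read 2525 on the RetSat shRNA array, against 1925 and 2094 on empty vectors 1 and 2. The empty-vector arrays differed by 0.12 for it, and RetSat shRNA lay 0.27 above the nearer of them, more than the step between the controls. Its difference from their mean was 0.33 (SE 0.501). Dhcr7, which reduces 7-dehydrocholesterol in the last step, read 531 with the shRNA, against 358 and 466 with empty vectors 1 and 2. Hsd17b7, a sterol ketoreductase, read 1657 with the shRNA, against 865 and 1435 with empty vectors 1 and 2. For Dhcr7 and Hsd17b7 empty vector 1 was the lowest array, and the step from empty vector 2 was 0.18 and 0.21. With its brightest probe set free of such a suffix, Hsd17b7 lay -0.43 from the empty-vector mean, the opposite direction.

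Sqle, the squalene epoxidase and an oxygen-dependent control point, read 3441 with the shRNA, against 2884 and 3365 with empty vectors 1 and 2, which is 0.03 from empty vector 2. Cyp51, the lanosterol demethylase, was nearly level at 2986 with the shRNA, against 2827 and 2963 with empty vectors 1 and 2. Nsdhl, a dehydrogenase of sterol demethylation, read 2739 with the shRNA, against 3142 and 2775 with empty vectors 1 and 2. The calls above or below both arrays for Sqle, Cyp51 and Nsdhl therefore rest on steps of at most 0.03 in size. With the mean of all probe sets, dim ones included, Cyp51 lay -0.26 from the empty-vector mean, and after quantile normalization it lay -0.01 from it. Lss, the cyclase that forms lanosterol, read 1146 with the shRNA, against 878 and 1234 with empty vectors 1 and 2. Sc5d, a sterol desaturase, read 1214 with the shRNA, against 1328 and 1124 with empty vectors 1 and 2. Both lay between the empty-vector arrays. Lss lay 0.14 above the empty-vector mean, and -0.29 from it with its brightest suffix-free probe set.

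The SREBP system was the group with the highest median. Of its 5 genes, 4 (Srebf1, Srebf2, Scap and Insig1) read above both empty-vector arrays and none below both, as deposited, with the arrays centred and after quantile normalization. The same settings put 34.4%, 45.4% and 36.3% of all tested genes above both, and 25.4%, 18.3% and 21.9% below both. On their brightest probe sets all 5 were above empty vector 2 under each of these, with a median difference of 0.15 as deposited, 0.22 with the arrays centred and 0.13 after quantile normalization, and of 0.73, 0.84 and 0.70 from empty vector 1. Most of the distance from empty vector 1 was also present in empty vector 2, where the median of the 5 genes was 0.58 above empty vector 1. Srebf2, the factor that drives mainly cholesterol genes, read 1292 on the RetSat shRNA array, against 785 and 1141 on empty vectors 1 and 2. Srebf1, whose products drive mainly fatty acid genes, read 584 with the shRNA, against 348 and 548 with empty vectors 1 and 2. In each case empty vector 2 lay close to RetSat shRNA and empty vector 1 well below, and the differences from empty vector 2 were 0.18 and 0.09.

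Scap, the escort protein, read 1351 with the shRNA, against 754 and 1244 with empty vectors 1 and 2. Insig1, the retention factor that is itself an SREBP target, read 2653 with the shRNA, against 1592 and 2392 with empty vectors 1 and 2. Both followed the order of the transcription factor genes, with differences from the empty-vector mean of 0.48 (SE 0.535) and 0.44 (SE 0.523), within the error of this design. With the mean of all probe sets, dim ones included, Scap lay -0.50 from the empty-vector mean. Insig2, the related retention factor, ran the other way at 642 with the shRNA, against 807 and 571 with empty vectors 1 and 2. Empty vector 1 was the highest array for Insig2 and the lowest for Insig1, while RetSat shRNA exceeded empty vector 2 for both, by 0.16 and 0.15. The other Insig2 probe sets above the filter read below both controls on RetSat shRNA. The first of them read 286 with the shRNA, against 298 and 294 with empty vectors 1 and 2. The other read 337 with the shRNA, against 346 and 346 with empty vectors 1 and 2. Both lay -0.04 from empty vector 2 on the log2 scale, so Insig2 exceeded that array on its brightest probe set alone.

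**Figure D3:**
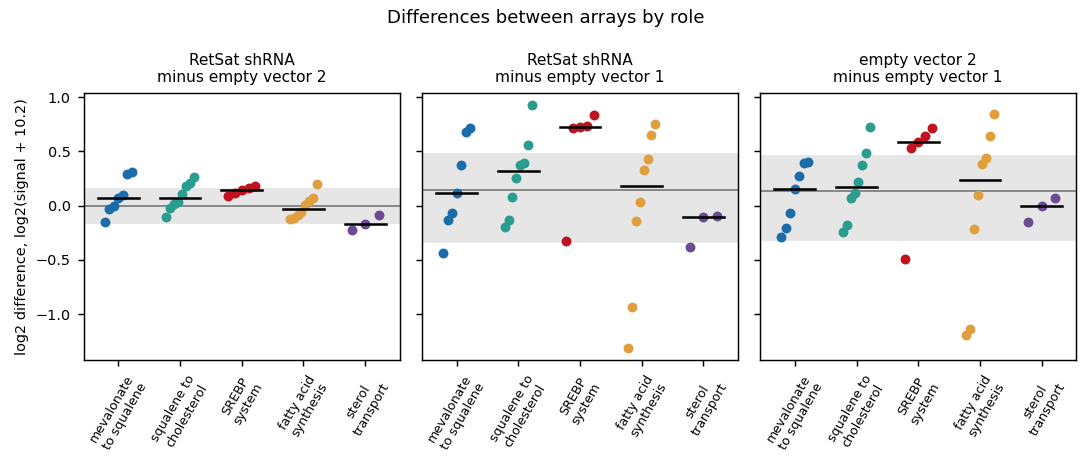
Log2 differences of the 31 members by role (points, 1 per gene, with black lines at the group medians) for RetSat shRNA minus empty vector 2, RetSat shRNA minus empty vector 1, and empty vector 2 minus empty vector 1, on the log2(signal + 10.2) scale. The grey band holds the central quartiles of all 10843 tested genes and the grey line their median; all 5 SREBP system genes lie above 0 and all 3 sterol transport genes below 0 in the first panel, where the highest member lies at 0.31.

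Over the fatty acid genes the SD of the log2 difference between the empty-vector arrays was 0.78, against 0.739 over all tested genes. Between RetSat shRNA and empty vector 2 it was 0.11, against 0.336 over all tested genes. For genes reaching the 75th percentile of signal these SDs were 0.657 and 0.210. The wider difference between the empty-vector arrays was thus shared by all tested genes. Of 8 genes, 2 (Fasn and Scd2) read above both empty-vector arrays (25%, against 34.4% of all tested genes) and 1 (Acaca) below both (12.5%, against 25.4%). With the arrays centred 3 were above and 1 below, and after quantile normalization 0 were above and 2 (Acly and Acaca) below. Relative to empty vector 2 the median difference was -0.03 (0.04 with the arrays centred), and relative to empty vector 1 it was 0.18. Acaca, the acetyl-CoA carboxylase that commits carbon to fatty acids, read 256 on the RetSat shRNA array, against 652 and 279 on empty vectors 1 and 2. Elovl6, an elongase of long-chain fatty acids, read 614 with the shRNA, against 1184 and 533 with empty vectors 1 and 2. These were the 2 members at least 2-fold lower on empty vector 2 than on empty vector 1 (6.45%, against 9.32% of all tested genes), and RetSat shRNA was nearer to empty vector 2 for both. For Acaca the difference of RetSat shRNA from the empty-vector mean was -0.72 (SE 0.593), whereas that from empty vector 2 was -0.12.

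Fasn, the fatty acid synthase, read 3223 with the shRNA, against 2054 and 3207 with empty vectors 1 and 2, level with empty vector 2 within 0.01 on the log2 scale. Acly, which supplies cytosolic acetyl-CoA from citrate, read 4501 with the shRNA, against 4389 and 4691 with empty vectors 1 and 2. The stearoyl-CoA desaturase Scd1 read 2441 with the shRNA, against 2698 and 2327 with empty vectors 1 and 2. For these genes RetSat shRNA and empty vector 2 differed by less than 0.10. With the mean of all probe sets Acly and Scd1 lay 0.13 and 0.12 above the empty-vector mean, against -0.01 and -0.04 with their brightest. Scd2, a related desaturase, read 11721 with the shRNA, against 8703 and 11382 with empty vectors 1 and 2. Fads1, a desaturase of polyunsaturated fatty acids, read 3835 with the shRNA, against 3060.5 and 4160 with empty vectors 1 and 2. Fads2, which acts earlier in the same route, read 1730.3 with the shRNA, against 1021 and 1838 with empty vectors 1 and 2. On these probe sets empty vector 1 was lowest for Scd2, Fads1 and Fads2. RetSat shRNA was below empty vector 2 for Fads1 and Fads2, with log2 differences of -0.12 and -0.09. The other Fads2 probe sets above the filter read above both empty-vector arrays. The first of them read 352 with the shRNA, against 148 and 317 with empty vectors 1 and 2. The other read 1006 with the shRNA, against 822 and 997 with empty vectors 1 and 2. Scd2 lay 0.04 above empty vector 2 on its brightest probe set. Its dimmest read 183 with the shRNA, against 471 and 224 with empty vectors 1 and 2, below both and -0.28 from empty vector 2. With the mean of all probe sets, Scd2 lay -0.31 from the empty-vector mean.

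The genes of sterol transport were the 1 group in which every member read below both empty-vector arrays (3 of 3, against 25.4% of all tested genes). Relative to empty vector 2 their median difference was -0.17, and relative to empty vector 1 it was -0.10. With the arrays centred 1 of the 3, Abca1, was still below both, the others lay between, and the median from empty vector 1 was 0.01. After quantile normalization Stard4 and Abca1 were below both, and Npc1 lay 0.06 above the empty-vector mean. Abca1, a pump that exports cholesterol and that oxysterols induce, read 119 on the RetSat shRNA array, against 157 and 141 on empty vectors 1 and 2, which is 149 ± 11.7 for the empty-vector arrays (SD, n = 2). Stard4, a cytosolic sterol carrier, read 963 with the shRNA, against 1033 and 1086 with empty vectors 1 and 2. Another Stard4 probe set read 458 with the shRNA, against 524 and 452 with empty vectors 1 and 2, between the controls. The last Stard4 probe set read 426.5 with the shRNA, against 625 and 489 with empty vectors 1 and 2, below both. On these dimmer probe sets empty vector 2 minus empty vector 1 was -0.21 and -0.35, and RetSat shRNA and empty vector 2 were the closest pair. Npc1, which moves cholesterol out of lysosomes, read 142 with the shRNA, against 152 and 151 with empty vectors 1 and 2. On the brightest probe sets of Abca1, Stard4 and Npc1 the empty-vector arrays lay close together. Empty vector 2 minus empty vector 1 was -0.15, 0.07 and -0.01, while RetSat shRNA minus empty vector 2 was -0.23, -0.17 and -0.08. Abca1 and Npc1 were the members that did not reach the 75th percentile of signal. Further tested genes of sterol uptake, storage and efflux, from a list described below, did not all read lower. Npc2, Scarb1, Lipa and Tmem97 read above both empty-vector arrays, Lipa by 0.0004 on the log2 scale. Mylip and Stard3 read below both, Stard3 by -0.004, and Osbp lay between.

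Empty vector 1 carried the largest differences in the list. It lay below both other arrays by the milder step for 13 of 31 members (41.9%, against 28.2% of all tested genes): Mvd, Pmvk, Lss, Dhcr7, Hsd17b7, Insig1, Srebf1, Srebf2, Scap, Fasn, Scd2, Fads1 and Fads2. It lay above both by that step for 3 (9.68%, against 20.6%): Insig2, Acaca and Elovl6. The 13 genes include members of every role but sterol transport. Set against empty vector 1 alone, 15 members were higher on RetSat shRNA by the milder step (48.4%, against 36.3% of all tested genes) and 5 were lower (16.1%, against 25.7%). Set against empty vector 2 alone, 0 members were higher or lower by that step, against 10.7% and 11.6% of all tested genes. Genes reaching the 75th percentile of signal, as 29 members did, had an SD of 0.210 for that difference, against 0.336 over all tested genes.

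Probe sets of the same gene often went different ways. Of the 31 members, 18 had at least 2 probe sets above the filter, and in 12 of these (66.7%, against 57.4% of 5131 genes with several probe sets) their differences from empty vector 2 had opposite signs. Of the 18, Mvd was the 1 that read beyond both empty-vector arrays the same way on every probe set (5.56%, against 19.6% of the genes with several probe sets). The other Mvd probe set read 761 with the shRNA, against 566 and 688 with empty vectors 1 and 2. Mvk had 327 with the shRNA, against 358 and 361 with empty vectors 1 and 2 on its other probe set, the reverse of the brighter one. For Srebf2 the other probe set read 898 with the shRNA, against 600.1 and 929 with empty vectors 1 and 2, so its small step above empty vector 2 was not repeated, whereas the distance from empty vector 1 was. Hsd17b7 was higher on its brightest probe set, which has an _x_ suffix, while another read 262 with the shRNA, against 324 and 390.3 with empty vectors 1 and 2.

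The spread between probe sets was wider relative to empty vector 1. Probe sets passed the milder step in opposite directions on RetSat shRNA relative to empty vector 1 for 2 of 18 members, Acly and Scd2 (11.1%, against 13.8% of genes with several probe sets), and relative to empty vector 2 for 1, Hsd17b7 (5.56%, against 8.07%). Scd2 read 1480.4 with the shRNA, against 2548 and 1467 with empty vectors 1 and 2 on its second probe set, where empty vector 1 was the highest array although it was the lowest on the brightest probe set. Acly read 616 with the shRNA, against 1295 and 591 with empty vectors 1 and 2 on one of its dimmer probe sets, and 3864 with the shRNA, against 2782 and 3654 with empty vectors 1 and 2 on its next-brightest, which went opposite ways relative to empty vector 1. The isomerase Idi1 read 1615 with the shRNA, against 922 and 1445 with empty vectors 1 and 2 on its second probe set, in the order of Mvd and Pmvk, while its brightest probe set was level. Hmgcs1 had 5 probe sets above the filter, 1 higher than both empty-vector arrays, 2 lower and 2 between, and on the 1 that read 814 with the shRNA, against 1612 and 869 with empty vectors 1 and 2, empty vector 1 stood alone. Across the 18 members, the median span between a gene's probe sets was 0.24 for the difference from empty vector 2 and 0.55 for that from empty vector 1. Over all 5131 genes with several probe sets these spans were wider, at 0.36 and 0.60. The median size of the members' own differences was 0.11 relative to empty vector 2 and 0.38 relative to empty vector 1, against 0.15 and 0.43 for all tested genes.

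**Figure D4:**
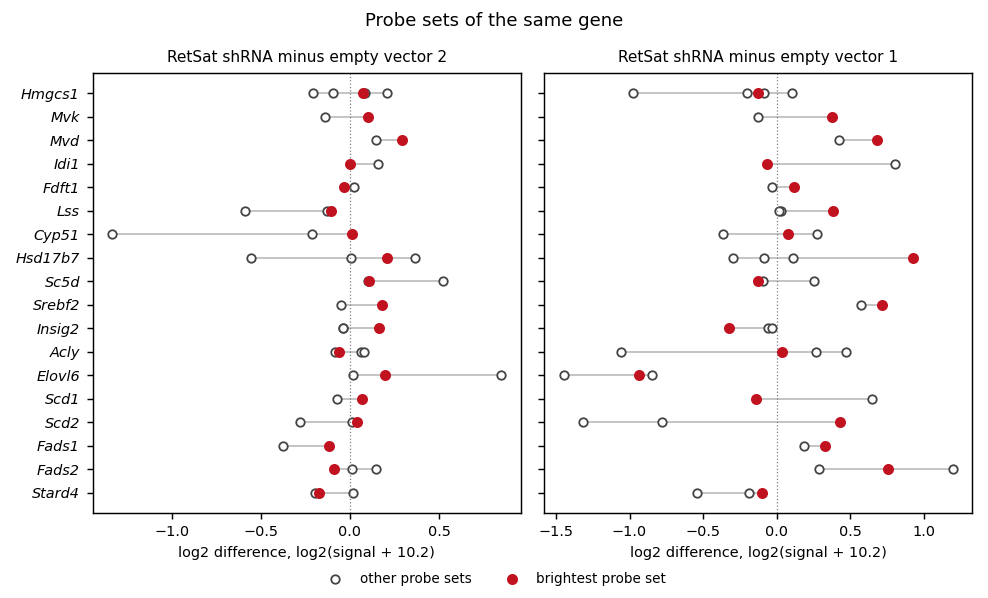
Log2 differences of every probe set above the filter for the 18 members with at least 2 of them, RetSat shRNA minus empty vector 2 (left) and minus empty vector 1 (right), on the log2(signal + 10.2) scale. Red points are the brightest probe set of a gene, which stands for it elsewhere. Open points are its other probe sets, and grey lines span them. The median span is 0.24 on the left and 0.55 on the right, against 0.36 and 0.60 over 5131 genes with several probe sets.

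As deposited, other genes of the same pathways gave a similar picture. Their counts were not taken with the arrays centred or after quantile normalization, which moved the members' counts. Of 36 further genes on a chosen list, 30 were tested, and 15 read above both empty-vector arrays on RetSat shRNA (50%, against 34.4% of all tested genes) and 5 below both (16.7%, against 25.4%). None passed limma (adjusted p of 1). Above both by the milder step were 2 genes (6.67%, against 5.49%), and 0 were below both by it (against 6.11%). The 2 higher genes were Npc2, the soluble partner of Npc1 in lysosomes, at 9591 with the shRNA, against 7074 and 7653 with empty vectors 1 and 2, and Slc25a1, the mitochondrial citrate carrier that feeds Acly, at 2494 with the shRNA, against 1133 and 1992 with empty vectors 1 and 2. For Npc2 the empty-vector arrays were close and RetSat shRNA lay 0.33 above the nearer, whereas for Slc25a1 empty vector 1 was far below both other arrays. Next by the smaller difference were Coq2, a prenyltransferase of ubiquinone synthesis, at 1619 with the shRNA, against 1009.5 and 1335 with empty vectors 1 and 2, and the sterol reductase Tm7sf2 at 805 with the shRNA, against 517 and 722 with empty vectors 1 and 2.

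On the lower side, Mylip, a ubiquitin ligase that acts on lipoprotein receptors and is induced by oxysterol-sensing receptors, read 1151 with the shRNA, against 1433 and 1428 with empty vectors 1 and 2. Empty vector 2 minus empty vector 1 was -0.01 for it, and RetSat shRNA minus empty vector 2 was -0.31. Mbtps1, the Golgi protease that makes the first cut in SREBP, read 948 with the shRNA, against 1037 and 1068 with empty vectors 1 and 2. Mbtps2, the protease of the cut that releases it, read 469.9 with the shRNA, against 513 and 481 with empty vectors 1 and 2. Both were below each empty-vector array, unlike Srebf1, Srebf2, Scap and Insig1, with log2 differences from empty vector 2 of -0.17 and -0.03. The malic enzyme Me1, a source of NADPH for lipid synthesis, read 778 with the shRNA, against 809.5 and 897 with empty vectors 1 and 2.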

How the data were processed

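Total RNA, extracted with Trizol LS and labelled with biotin per the labels, was measured on 1 RetSat shRNA array and 2 empty-vector arrays. The authors deposited 1 linear intensity for each of 45101 probe sets, and these had a 2% trimmed mean of 250 on each array, which shows that they were scaled before deposit. The sources used here name no summarisation software, and detection calls were not used here. The number of arrays limits precision.

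Gene names came from the platform annotation, with array control probe sets left out: 34945 probe sets had 1 symbol and 932 had several, which were not used. The gene IDs of the members were the same in the GRCm38.p6 table. Before log2, 10.2 was added to each value (the 25th percentile over the arrays), and a log2 difference on that scale understates the change of dim genes. A gene was its probe set of highest mean log2 signal, and was tested when that reached the median over all probe sets, a signal of about 33.3. No further normalization was applied. RetSat shRNA was compared with empty vector in limma 3.58.1 (R 4.3.3, lmFit and eBayes, two-sided, Benjamini-Hochberg over 10843 genes, threshold 0.05), which was tested on simulated data. The simulated noise was set from the difference between RetSat shRNA and empty vector 2, with an SD of 0.336. Between the empty-vector arrays, which give the residual of the fit, the SD was 0.739. The simulation therefore does not show which changes the fit can recover here. Positions relative to both empty-vector arrays, with steps of 0.32 on the log2 scale and 2-fold, were described with no test. All members are named. Of the other pathway genes, up to 4 a side beyond both arrays were given with their signals, ranked by the smaller difference. The tested ones of sterol uptake, storage and efflux were all named. Members and lists were chosen with earlier results of these data known. Promoters were searched in Python 3.11.15. Alternatives covered offset, scaling, filter, probe set choice, variance prior and leaving out each empty-vector array.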

Additional observations from a re-analysis of the deposited data

How the results depend on the processing

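No member passed limma, at an adjusted p of 0.05 or an unadjusted p under 0.05, in any of the 11 fits run. Over all genes 0 passed in the fit reported, 1 with the arrays centred on their medians and 7 with a robust variance prior, Retsat among them (limma adjusted p of 0.00717). Genes that differed 2-fold or more from each empty-vector array numbered 64 as reported, 110 with an offset of 1, 11 with an offset at the median, 801 without a filter and 1 at the 75th percentile, and 188 to 1478 when an empty-vector array was left out. Members beyond both arrays numbered 20 as reported, and 18 to 23 under the alternatives that kept all arrays. Leaving out an array makes every member higher or lower, so all 31 count (without empty vector 1, 20 higher and 11 lower, and without empty vector 2, 19 higher and 12 lower). With the arrays centred, 3 members were below both and 3 were above both by the milder step of 0.32 on the log2 scale. With the mean of all probe sets, dim ones included, 2 were below both by that step. With an array left out, members higher by that step numbered 0 to 15 and lower 0 to 5. The members' median difference from the empty-vector mean was 0.10, ran from 0.042 to 0.254 with an array left out, and was -0.0046 with probe sets free of an _s_ or _x_ suffix. Among members above both arrays, the call turned to below both for Cyp51 (-0.26), Scap (-0.50) and Scd2 (-0.31) with the mean of all probe sets, and for Hsd17b7 (-0.43) with the suffix-free probe set. The sign of the difference from the empty-vector mean also turned by more than the controls' SD for Lss (-0.29, suffix-free), for Idi1 (0.22), Acly (0.13) and Scd1 (0.12) with the mean of all probe sets, for Idi1 (0.06), Acly (0.08) and Npc1 (0.0012) with the arrays centred, and for Cyp51 (-0.01) and Npc1 (0.06) after quantile normalization. Over the settings that kept all arrays, 7 members (Dhcr7, Ebp, Insig1, Mvd, Pmvk, Srebf1 and Srebf2) stayed above both. Below both stayed 3 (Abca1, Acaca and Fdps), while 6 were never beyond both and 15 varied. An offset or a filter cannot change the order of the arrays on a probe set, so those settings repeat its call by construction. Dhcr7, Ebp, Insig1, Pmvk and Srebf1 had no other probe set, so the choice of probe set could not change their calls either. For these genes the scaling settings alone could have moved the call. Without a filter or with a stricter one, the number of genes tested changes by construction. The cause of the other shifts was not tested. limma could not be run without either empty-vector array, since no residual degrees of freedom remain. No paired analysis was possible because the groups share fewer than 2 replicate numbers: RetSat shRNA and empty vector 2 are both numbered 2, and RetSat shRNA has 1 array.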
